A study of Mus musculus with 2 samples.

Results

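Gene names made of Gm and a number are provisional mouse gene models, most of them predicted from sequence. Among the annotated transcript models with reads in mouse gastrocnemius, a calf muscle, 650 models of 647 such genes had a single exon. They were chosen by name, annotation status and exon number, not by their level, out of 18160 annotated models and 1637 annotated single-exon models with at least 1 read. The annotation lists 17477 single-exon Gm transcripts, so 3.72% of them had a read. The tissue was taken at 36 days of age from male B6CASTF1/J animals, that is, the F1 of C57BL/6J crossed with CAST/EiJ. Both libraries belong to the same group and are biological replicates made from 2 µg of RNA each, so the design compares no conditions, and a difference between them is a difference between 2 libraries. By the labels, replicate 1 is male 03, replicate 2 is male 04, and the donor entry is shared by both. Positions are on mm10, which is the C57BL/6J sequence, and the alleles of the cross were not separated here.

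A processed pseudogene arises when the messenger RNA of a gene is copied back into DNA and inserted elsewhere in the genome. It therefore lacks introns, often ends in a remnant of the poly(A) tail and can stay nearly identical to the gene it came from, its parent. An unprocessed pseudogene comes from copied DNA, and mitochondrial DNA inserted in a nuclear chromosome is annotated in this class. Genes that are strongly expressed in the germ line, such as those for ribosomal proteins and glycolytic enzymes, have left many processed copies in mammalian genomes. A read that covers only the shared stretch cannot be told apart between parent and copy, so the counts of near-identical loci below are uncertain as measures of what each locus transcribed. Muscle expresses glycolytic and respiratory genes strongly, and several of their copies lead the list below.

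The 2 members with the highest level per length show how close a copy can be. Each is identical over its whole length to a stretch of its candidate parent's spliced transcript. The start codon and, where the model ends on one, the stop codon are in capitals, and the sequences are those of the GENCODE M21 transcripts, 5′ to 3′. Gm12338 (chr11:75599763-75599954, minus strand) matches Cox7c (chromosome 13), and Gm14539 (chrX:20581141-20581314, minus strand) matches Usmg5 (chromosome 19).
Gm12338: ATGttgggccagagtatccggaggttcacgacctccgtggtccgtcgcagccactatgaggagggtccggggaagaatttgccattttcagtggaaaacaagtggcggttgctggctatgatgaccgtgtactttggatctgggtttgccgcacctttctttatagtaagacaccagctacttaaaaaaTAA
Gm14539: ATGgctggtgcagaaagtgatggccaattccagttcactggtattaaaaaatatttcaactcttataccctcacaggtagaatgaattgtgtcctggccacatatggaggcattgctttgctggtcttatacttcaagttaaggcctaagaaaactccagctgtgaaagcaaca

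The copies of Gapdh, the glycolytic enzyme gene on chromosome 6 (chr6:125161715-125166467, minus strand), hold more member reads than those of any other parent. Gm12671 and Gm10359 are identical to the Gapdh coding sequence over 1002 bases. Gm5559, Gm12033, Gm13394 and Gm2606 each differ from it by 1 substitution and no gap. The windows below show these substitutions in capitals, with the Gapdh window under each copy. A substitution gives the Gapdh base, the position counted from 1 at the copy's 5′ end, and the copy's base: T385A in Gm5559, T504C in Gm12033, A346C in Gm13394 and C583T in Gm2606. The windows lie at chr5:95862078-95862118 (plus), chr11:20335490-20335530 (minus), chr2:28934244-28934284 (minus) and chr15:12575451-12575491 (plus).
Gm5559: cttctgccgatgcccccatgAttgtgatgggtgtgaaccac
Gapdh: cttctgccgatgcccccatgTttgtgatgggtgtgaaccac
Gm12033: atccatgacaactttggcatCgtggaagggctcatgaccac
Gapdh: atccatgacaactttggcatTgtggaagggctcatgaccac
Gm13394: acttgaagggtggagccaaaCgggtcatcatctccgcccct
Gapdh: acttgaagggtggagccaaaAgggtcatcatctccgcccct
Gm2606: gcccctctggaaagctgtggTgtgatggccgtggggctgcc
Gapdh: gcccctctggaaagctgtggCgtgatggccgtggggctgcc

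Levels are whole read counts per model and CPM, counts scaled to 1000000 reads in annotated genes (1036455 in replicate 1 and 1374068 in replicate 2). A count of 0 allows up to 3 reads, which is 2.89 CPM for replicate 1 and 2.18 CPM for replicate 2. Reads carry no molecular identifiers in the tables, so the intervals and limits given here hold counting error alone. Muscle markers were high in both libraries (6 genes, 324435 and 252240 CPM in sum), and both liver markers were at 0. The muscle markers did not move together. Atp2a1 (100411 and 26014 CPM), Acta1 and Ckm were lower in replicate 2, while Tnnc2 (34637 and 52524 CPM), Mylpf and Myh4 were higher. The summed level of 3 fibroblast markers was 3171 and 787 CPM, that of 2 Schwann cell markers 440 and 267 CPM, and that of 2 blood markers 217 and 288 CPM.

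The 650 members held 11745 reads in replicate 1, or 1.13% of gene reads (Wilson 95% interval 1.11 to 1.15), and 18658 reads in replicate 2, or 1.36% (1.34 to 1.38), a mean of 1.25% ± 0.159 (SD, n = 2). Replicate 1 had reads on 404 members and replicate 2 on 525, with 279 found in both. A single read in all was the only trace of 300 members. At least 10 reads in sum were found for 144 members and at least 100 for 39. The 12 highest members alone held 64.8% of member reads in replicate 1 and 54.9% in replicate 2, so the group is a few abundant models and a long tail.

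By annotated class, 341 members were processed pseudogenes and held 10274 reads (87.5% of member reads) in replicate 1 and 13926 (74.6%) in replicate 2. They were the largest class by number and by reads, and are also the largest annotated class, 8022 of 17477 single-exon Gm transcripts. Of these 8022, 4.25% had a read. The share was 11.9% for long noncoding, 8.82% for protein-coding, 3.49% for TEC, 1.64% for small RNA and 1.54% for unprocessed pseudogene models. The 16 unprocessed pseudogenes held 540 and 2964 reads, 4.60% and 15.9% of member reads. The other classes were thin: 39 protein-coding models with 394 and 934 reads, 85 long noncoding models with 234 and 443, 74 small RNA models with 211 and 167, and 95 models still to be tested by experiment (TEC in the annotation) with 92 and 224. Of the TEC models 30 lie on the strand of another gene. Over all classes, 133 members overlap another gene on their own strand and 255 lie opposite one.

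**Figure D1:**
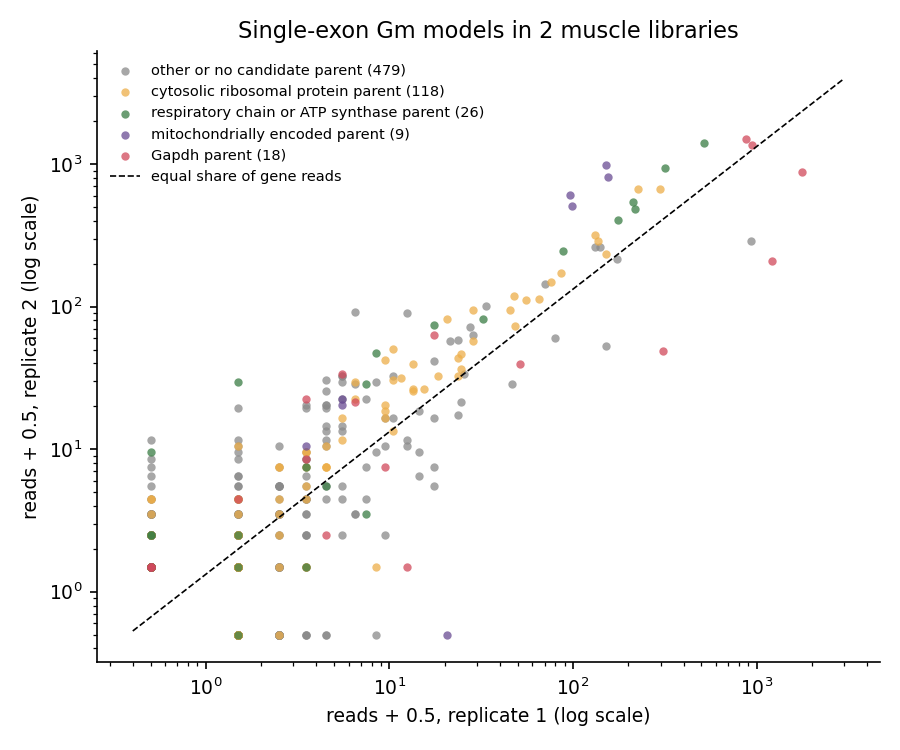
Reads of each of the 650 members in replicate 1 (x axis) and replicate 2 (y axis), with 0.5 added, on log scales, coloured by the role of the candidate parent; the dashed line marks an equal share of gene reads. The 9 members with a mitochondrially encoded parent lie above the line except Gm13340, and several Gapdh copies lie below it.

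A candidate parent was the best-matching spliced transcript, or mitochondrial gene, of another locus with at least 80% identity over at least 50% of the member. It was found for 61.2% of members, from 263 genes. Those members held 95.4% of member reads in replicate 1 and 95.9% in replicate 2, while the 252 without a candidate held 543 and 774 reads. Among processed pseudogenes 323 of 341 had a candidate, and 110 of the 323 (34.1%) had exactly the length of a parent coding sequence with its stop codon. The match was tied between genes for 19 members. Of the 74 small RNA models 34 had a match, 17 of them in Eny2 transcripts. These matches are counted among the candidates here and by role below, and whether they mark a copied gene was not tested.

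Members closest to their candidate parent had the most reads. The 64 members at 80% to under 95% identity had a median of 1 read in sum and at most 12. For the 138 members at 95% to under 99% the median was 1 read and the highest 113. For the 196 at 99% or more the median was 11 and the highest 2651, and 101 of these had at least 10 reads, against 23 and 2 in the lower ranges. Identity and reads had a Spearman rho of 0.581 over the members with a candidate; all points come from the same libraries, copies of 1 parent are not independent, and whether reads came from the copy or its parent is not known. Along their whole length 52 members were identical to their candidate, 33 of them with at least 10 reads.

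**Figure D2:**
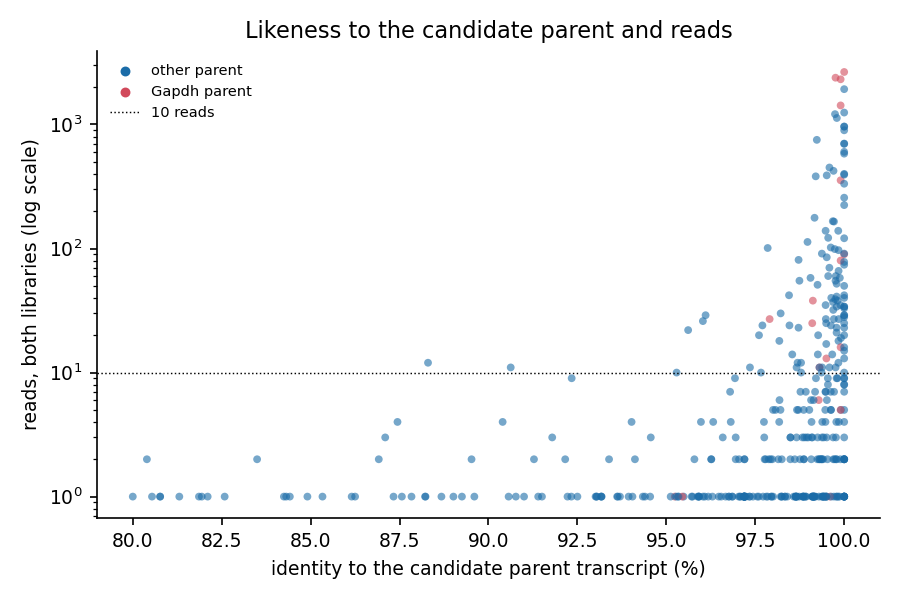
Identity of each member to its candidate parent in percent (x axis) against reads summed over both libraries (y axis, log scale), with Gapdh copies in red and a dotted line at 10 reads. Members with more than 113 reads lie at 99% identity or more.

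The sequence also differed by level. Of the 102 processed pseudogenes with at least 10 reads, 82 (80.4%) start with ATG and 50 (49.0%) keep an open frame from that ATG to a closing stop codon. Of the 239 with 1 to 9 reads, 165 (69.0%) start with ATG and 60 (25.1%) keep the frame. Among 7681 annotated single-exon Gm processed pseudogenes without a read, 2798 (36.4%) start with ATG and 278 (3.62%) keep the frame. Median GC content was 52.1%, 49.4% and 47.3% in the same order, and median lengths were 481.5, 537 and 511 bases. These shares describe the annotated models and were not tested.

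Among all parents, Gapdh had the largest excess of reads on the copies over reads on the gene. The Gapdh gene itself had 67 reads in replicate 1 and 130 in replicate 2 (79.6 ± 21.2 CPM, SD, n = 2). Its 18 single-exon Gm copies had 5234 and 4210 reads (4057 ± 1404 CPM), which is 98.7% (exact 95% interval 98.4 to 99.02) and 97.0% (96.5 to 97.5) of the reads on Gapdh and these copies together. They made up 44.6% of all member reads in replicate 1 and 22.6% in replicate 2. Other steps of the pathway had 13817 ± 632 CPM at Aldoa (aldolase), 2438 ± 213 CPM at Tpi1 (triosephosphate isomerase), 759 ± 73.2 CPM at Pgk1 (phosphoglycerate kinase, the step after Gapdh) and 9991 ± 1161 CPM at Eno3 (the muscle enolase). The 2 genes named Gapdh-ps with reads added 37 and 86.

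Gm12671 (chr4:91851668-91852669, minus strand) led all members by mean, with 1774 reads in replicate 1 and 877 in replicate 2 (1175 ± 759 CPM). Gm7336 (chr7:51746647-51747878, plus strand, 1232 bases, which extends past the coding length) had 877 and 1507 reads (971 ± 177 CPM). Gm5559 (chr5:95861714-95862715, plus strand) had 949 and 1366 reads (955 ± 55.5 CPM). These 3 copies stood at similar means, and the spread between the libraries was widest for Gm12671.

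Gm12033 (chr11:20335012-20336013, minus strand) had 1216 reads in replicate 1 and 209 in replicate 2, and Gm13394 (chr2:28933610-28934609, minus strand) had 307 and 48. Gm10359, identical to Gapdh like Gm12671, had only 51 and 39 reads, and Gm2606 had 17 and 63. The identical copies Gm12671 and Gm10359 thus stood far apart in level. The remaining 11 copies had 12 reads or fewer in replicate 1 and 33 or fewer in replicate 2.

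Copies on the plus and the minus strand had different ratios between the libraries. The 5 copies on the plus strand summed to 1852 and 2965 reads, a log2 ratio of replicate 2 over replicate 1 of 0.27. The 13 on the minus strand summed to 3382 and 1245 reads, a log2 ratio of −1.85. Replicate 2 held 4020 reads, against 50 in replicate 1, in single-exon models that begin on the last base of a copy and run on downstream on the same strand. Counted with them, the minus-strand copies had 3430 and 5252 reads (log2 ratio 0.21) and the plus-strand copies 1854 and 2978 (0.28). For all 18 copies the log2 ratio was −0.72 without these reads and 0.23 with them, so the direction between the libraries turned.

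**Figure D3:**
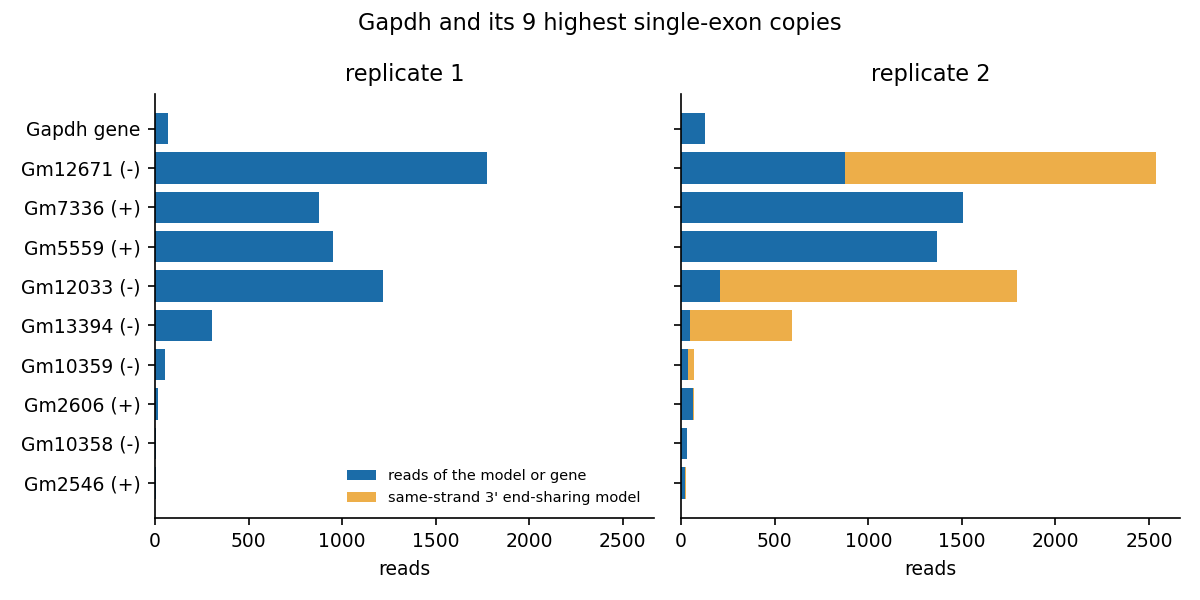
Reads at the Gapdh gene and its 9 highest single-exon copies (strand in brackets) in replicate 1 (left) and replicate 2 (right); blue bars are reads of the model or gene and yellow bars those of same-strand models that share its 3′ end base. In replicate 2 the minus-strand copies Gm12671, Gm12033 and Gm13394 carry 1661, 1584 and 545 yellow reads, and in replicate 1 none.

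Respiratory chain and ATP synthase genes of the nucleus were candidate parents of 26 members from 17 genes, with 1613 and 4312 member reads. Gm12338, the copy of the cytochrome c oxidase subunit gene Cox7c, had 518 and 1409 reads (763 ± 372 CPM), against 1117 and 3103 at Cox7c. Gm14539, the copy of the ATP synthase subunit gene Usmg5, had 318 and 930 reads (492 ± 262 CPM), against 897 and 2625 at Usmg5. Both copies passed the test between the libraries described below, higher in replicate 2. Gm11273, annotated as protein coding and 99.2% identical to the cytochrome c oxidase gene Cox5b, had 212 and 540 reads.

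Atp5g2, which encodes the membrane ring subunit of ATP synthase, had 3 member models as copies. Gm10231 had 217 and 485 reads, and Gm10175 had 175 and 407 in its model of 441 bases, against 235 and 589 at Atp5g2. Together the member models held 62.5% (exact 95% interval 58.6 to 66.3) and 60.3% (57.7 to 62.8) of the reads of parent and copies.

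The mitochondrially encoded genes were candidate parents of 9 members, 7 on chromosome 1 and 2 on chromosome 2, all on the minus strand. Those on chromosome 1 lie side by side. Gm29216 (chr1:24615706-24616197), a copy of part of mt-Co1, had 150 and 978 reads (428 ± 401 CPM), against 932 and 3960 at mt-Co1. Gm10925 (chr1:24613974-24614651), identical to mt-Atp6, had 154 and 810 reads, and mt-Atp6 itself 131 and 798. Gm28661 had 96 and 602 reads beside 80 and 578 at mt-Co2, and Gm28437 had 98 and 504 beside 104 and 530 at mt-Co3. The counts of copy and mitochondrial gene were thus close for mt-Atp6, mt-Co2 and mt-Co3, and far apart for mt-Co1. They were also far apart for Gm28439, identical to part of mt-Nd4, with 5 and 20 reads against 135 and 678.

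Cytosolic ribosomal protein genes gave the most members, 118 from 57 parents, with 1785 and 4016 reads against 12156 and 26348 at the parents. This count includes Gm23368, a small RNA model that matches Rpl7l1. Gm14303, a copy of Rps29, had 297 and 663 reads (385 ± 139 CPM), beside 295 and 628 at Rps29. Gm15500 (chr7:114705270-114706163, minus strand), identical to Rpl5, had 225 and 673 reads beside 378 and 993. At 5 parents the copies had more reads than the gene in sum. Their share was 87.1% and 90.8% for the 9 copies of Rpl21, 82.9% and 82.5% for the 5 of Rpl35a, 81.2% and 79.4% for the 3 of Rpl30, and 59.6% and 54.5% for the 3 of Rps6. For the 2 copies of Rps29 it was 50.3% and 51.4%. Gm13370 led the Rpl21 copies with 132 and 318 reads, against 24 and 38 at Rpl21. Gm10243 led those of Rpl35a with 136 and 287, against 29 and 63.

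Among copies identical to their candidate over their whole length, those with at least 100 reads outside Gapdh had similar shares of reads in both libraries. Gm14303 held 50.2% (exact 95% interval 46.1 to 54.3) and 51.4% (48.6 to 54.1) of the reads of copy and parent. Gm10925 held 54.0% (48.1 to 59.9) and 50.4% (47.9 to 52.9), and Gm28437 held 48.5% (41.4 to 55.6) and 48.7% (45.7 to 51.8). Lower shares were also similar: 31.7% (29.4 to 34.0) and 31.2% (29.9 to 32.6) for Gm12338, and 26.2% (23.7 to 28.7) and 26.2% (24.7 to 27.6) for Gm14539. In each of the 15 such pairs outside Gapdh with at least 100 member reads, the intervals of both libraries overlapped. Overlap of intervals is no test of equal shares. Some identical copies with fewer reads, picked after their values were seen, had shares that differed by a larger factor, but their intervals overlapped too. Gm8186 held 11.4% (3.20 to 26.7) and 31.2% (21.3 to 42.6) of the reads with Snrpg, and Gm13835 held 1.504% (0.411 to 3.81) and 5.36% (3.64 to 7.56) of those with Psma3.

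**Figure D4:**
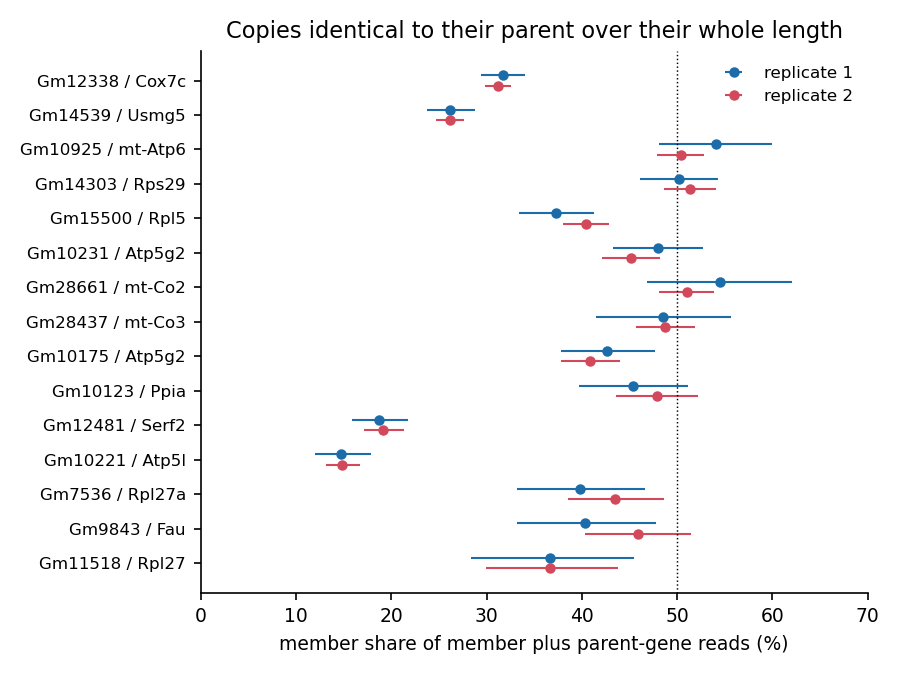
Share of reads on the copy, in percent of reads on copy and parent gene (x axis), for 15 copies identical to their candidate parent over their whole length, outside Gapdh; points are libraries, bars exact 95% intervals and the dotted line marks 50%. Both libraries' bars overlap in every pair, from 14.7% for Gm10221 to 54.5% for Gm28661, both in replicate 1.

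The remaining 227 members with a candidate came from 181 genes and held 2039 and 2399 reads. Gm15459 (chr5:5781615-5783555, minus strand, 1941 bases), a copy of the constitutive heat shock protein gene Hspa8, had 926 and 286 reads (551 ± 485 CPM), while Hspa8 had 1063 and 980. Gm10774, a copy of Polr2l, which encodes a small RNA polymerase subunit, had 174 and 215 reads. Gm10123, a copy of the cyclophilin A gene Ppia, had 139 and 261 reads beside 167 and 284 at Ppia. Gm8566, 97.8% identical to the superoxide dismutase gene Sod1, had 12 and 89 reads beside 31 and 136.

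Few members without a candidate parent reached 10 reads, 18 in all. Gm28006 (chr19:5844916-5845037, minus strand, 122 bases) lies inside the nuclear noncoding RNA gene Neat1 and had 150 and 52 reads. Gm42418 (chr17:39846958-39848788, plus strand), a long noncoding model, had 70 and 144 reads. Gm37829, a TEC model of 2213 bases, had 33 and 101. These loci share no candidate parent and were not read as copies.

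The members were short, with a median of 625.5 bases and a range of 53 to 9720. Those with at least 10 reads had a median of 513 bases, from 96 for Gm23368, a model of the microRNA class with 4 and 7 reads, to 4240 for Gm48226, which lies opposite Gphn and had 9 and 10. Single-exon models of genes named as pseudogenes or related sequences (-ps or -rs) were of like length, with a median of 472.5 bases over 136 models. The other 851 single-exon models had a median of 1898 bases, and all annotated models 2103. Annotated single-exon Gm models without a read had a median of 462 bases.

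A single-exon model sharing an end base with a member, in either library and on either strand, was found beside 118 members (18.2%), and beside 146 of the 987 other annotated single-exon models (14.8%). On the same strand and the 3′ side there were 33 such members with 193 reads in replicate 1 and 70 with 5536 reads in replicate 2. Of the 5536 reads, 5396 lay beside 39 of the 345 members on the minus strand and 140 beside 31 of the 305 on the plus strand. Members with such a model were thus about as common on either strand, and the strands differed in reads. The other single-exon models had 429 and 719 such reads, with 604 of the 719 on the minus strand. Gm12671, Gm12033, Gm15459, Gm13394 and Gm10774, all on the minus strand, had 1661, 1584, 574, 545 and 425 such reads in replicate 2 and 0 in replicate 1.

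The length of these downstream models was set beside what is left of the candidate parent's transcript after the matched stretch. For 18 of 24 models with at least 10 reads, counted per library, at 14 of 19 members, the bases beyond the member and the bases left in the parent differed by 10 or fewer, and these 18 held 4758 of the 5453 reads. At the 9 Gapdh copies the downstream models added 179 to 185 bases, where Gapdh has 178 to 181 left. At Gm15459 the model added 85 bases, with 83 left in Hspa8. At Gm7075, a copy of the ubiquitin ligase gene Rnf7, it added 763 bases in replicate 2, with 761 left. Gm9755, a copy of the mitochondrial elongation factor gene Tufm, added 235, with 236 left.

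Other downstream models did not have the length left in the chosen transcript of the parent. Where transcripts of a parent matched equally well, the first by identifier was taken, and the others were not compared. Gm10774 added 258 bases where the chosen Polr2l transcript has 1436 left, and Gm10039 added 112 where that of Atp5g1 has 4252. Beside Gm13340, the mt-Co1 copy on chromosome 2, a model of 142 bases (chr2:22587962-22588103) with 154 reads in replicate 2 reached from its last base to the first base of Gm13341, the mt-Co2 copy. The sequence of the downstream models was not used here.

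Counting the downstream reads to the copies changed shares between parent and copy. For Hspa8 the 2 copies held 46.6% (44.4 to 48.8) of reads in replicate 1 and 22.8% (20.6 to 25.2) in replicate 2 by the models alone, and 46.9% (44.6 to 49.2) in replicate 2 with them. The Tufm copy went from 3.80% and 1.39% to 31.5% (23.0 to 41.0) and 34.9% (26.0 to 44.6). For Polr2l the share in replicate 2 went from 21.2% to 44.4% (41.9 to 47.0), with 36.0% in replicate 1. With these reads the intervals of both libraries overlapped for Hspa8, which they did not without them, and did not overlap for Polr2l. For Tufm they overlapped either way.

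Not all end-sharing models lay downstream. At Gm26917 (chr17:39843013-39846341, plus strand, 12 and 10 reads), an antisense model over the locus had 1755 and 565 reads. At Gm42418, its neighbour, a same-strand model of 606 bases ended on its first base with 241 and 474 reads. At Gm27694, an 86-base model inside Malat1 with 0 and 2 reads, antisense models held 26 and 228 reads. These 3 members thus had more reads beside them than on them.

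Between the libraries, a two-sided exact binomial test of the 2 counts given the library totals was run over all 6722 annotated models with at least 10 reads, with Benjamini-Hochberg adjustment over all of them, and a call needed both an adjusted p below 0.05 and a ratio of 2-fold or more. It compares 2 libraries, and fewer cells of a type and less RNA per cell cannot be told apart in such bulk samples. Of the 144 members tested, 53 were called (36.8%), where 25.2% of all models were. Higher in replicate 2 were 42 members (29.2%), against 3.84% of all models, and higher in replicate 1 were 11 (7.64%), against 21.4%. The median log2 ratio of replicate 2 over replicate 1 was 0.85 for members and −0.50 for all models, so members stood 1.35 above the median model. Other annotated single-exon models also had positive medians, 0.33 on the plus strand (150 tested) and 0.21 on the minus strand (126 tested). Single-exon -ps and -rs models had a median of 0.40. Over the tested members, length and ratio had a Spearman rho of −0.242, and the part of length was not tested. Of the 144 tested members 84 had an unadjusted p under 0.05 by this test, and of all 6722 models 2966 had. Of the 10 reads set as the minimum, 6 members had exactly that number and 12 had 9.

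The scaling sets the zero of these ratios. With edgeR's TMM factors the median of all models moved to 0.04 and that of members to 1.39, and 75 members were higher in replicate 2 and 6 in replicate 1, where 13.4% and 8.94% of all models were (22.4% in all). With DESeq2 size factors 73 and 6 members were called, where 12.7% and 9.40% of all models were (22.1% in all). The difference of the medians was 1.35 in each. Gm12671 (log2 ratio −0.89 with TMM, under 2-fold) and Gm14038 (−1.80, adjusted p = 0.159 by the exact binomial test) were then no longer called, while Gm14303 (1.29) and Gm11273 (1.48) were. Marker levels given above also differed between the libraries, and their part in the members' ratios was not tested.

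Calls were counted by the role of the candidate parent. Of the 13 tested members with a nuclear respiratory chain or ATP synthase parent, 7 were higher in replicate 2 and 0 in replicate 1, and the median log2 ratio was 1.04. Of 8 with a mitochondrially encoded parent, 5 were higher in replicate 2 and 1 in replicate 1, with a median of 1.79. Of 44 with a ribosomal protein parent, 7 and 0 were called, with a median of 0.65. Of 13 Gapdh copies, 3 and 4 were called. Of 48 with another parent 15 were higher in replicate 2 and 5 in replicate 1 (median 0.93), and of 18 without a candidate 5 and 1 (median 0.51). Over all models these shares were 3.84% and 21.4%. By gene, over all models, 7 of 17 listed mitochondrial genes of the nucleus were higher in replicate 2 and 0 in replicate 1, with a median of 0.96; of 81 ribosomal protein genes tested, 6 and 0 were called, with a median of 0.55. Of all genes 5.76% were higher in replicate 2 and 12.9% in replicate 1 (18.6% in all), with a median of −0.28. Of 12 listed glycolysis and energy genes 0 were called by the exact binomial test, although all 12 had an unadjusted p below 0.05, and the median was 0.03. Of all 8339 genes tested, 3312 had an unadjusted p below 0.05.

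Over 125 members whose candidate parent was also tested, the ratio of the member and that of its parent had a Spearman rho of 0.394, and 0.431 over the 112 outside Gapdh; members of a family share 1 parent value and all ratios share both libraries. The medians were 0.86 for members and 0.54 for parents. In the 32 pairs identical over the whole member they were 0.78 and 0.65. Single-exon models of -ps and -rs genes had 8 of 63 higher in replicate 2 and 2 in replicate 1, where 3.84% and 21.4% of all models were.

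The members with the largest ratios toward replicate 2 had few reads, except Gm6563. Gm6563 (chr19:23675848-23676480, plus strand), a copy of Sarnp, which encodes an RNA-export factor, had 6 and 91 reads (log2 ratio 3.41, adjusted p = 1.87e-14 by the exact binomial test), while Sarnp had 58 and 124. Gm2962, a copy of the complex III gene Uqcrb, had 1 and 29 reads. Gm5526, a copy of the myosin light chain gene Myl6, had 1 and 19 (log2 ratio 3.29). With its 7 downstream reads, all in replicate 1, the ratio was 0.79 and the call was lost (adjusted p = 0.301 by the exact binomial test). Gm8719, a copy of Ppih, a cyclophilin of the splicing machinery, had 1 and 11, and its call was lost without the minimum of 10 reads (adjusted p = 0.121 by the exact binomial test). Gm24853, a small nucleolar RNA model, had 0 and 11 reads, which against the floor of 3 reads per library is at least 2.77-fold higher in replicate 2.

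Toward replicate 1, downstream reads bore on most of the largest ratios. Gm13340 had 20 and 0 reads, at least 8.84-fold lower in replicate 2 against the floor of 3 reads, but 154 same-strand downstream reads there. Gm13292, a Gapdh copy, had 12 and 1 reads, and 41 downstream reads in replicate 2. Over all models of its gene it had 43 and 39 reads, and the call was lost (log2 ratio −0.55, adjusted p = 0.203 by the exact binomial test). Gm13394 had a log2 ratio of −3.07 (adjusted p = 6.1e-63 by the exact binomial test) and Gm12033 one of −2.94 (adjusted p = 2.64e-238). Gm14038, a copy of Zfand1, had 9 and 2 reads and no end-sharing model. Of the 11 members higher in replicate 1, 9 lie on the minus strand, as do 83 of all 144 tested members.

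With all end-sharing reads added to the members, 169 members were tested and 52 called, 48 higher in replicate 2 and 4 in replicate 1 (25.1% of all models were called in that count, 3.91% and 21.2% by direction). The same call in the same direction was made for 40 members with and without these reads. The added reads include those of the opposite strand. Gm26917 is among the 4 through 1755 and 565 antisense reads, and Gm27694 among the 48 through 26 and 228 antisense reads. The model of 154 reads between Gm13340 and Gm13341 was added to both, and both are among the 48. The log2 ratio of Gm12671 went from −1.42 to 0.11, that of Gm12033 from −2.94 to 0.15, that of Gm13292 from −3.47 to 1.36 and that of Gm10774 from −0.10 to 1.47. Gm15459 went from −2.10 to −0.51 and no longer reached 2-fold. Over the members on the minus strand the median ratio was 0.81 without and 0.88 with these reads, and on the plus strand 0.86 and 0.87.

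**Figure D5:**
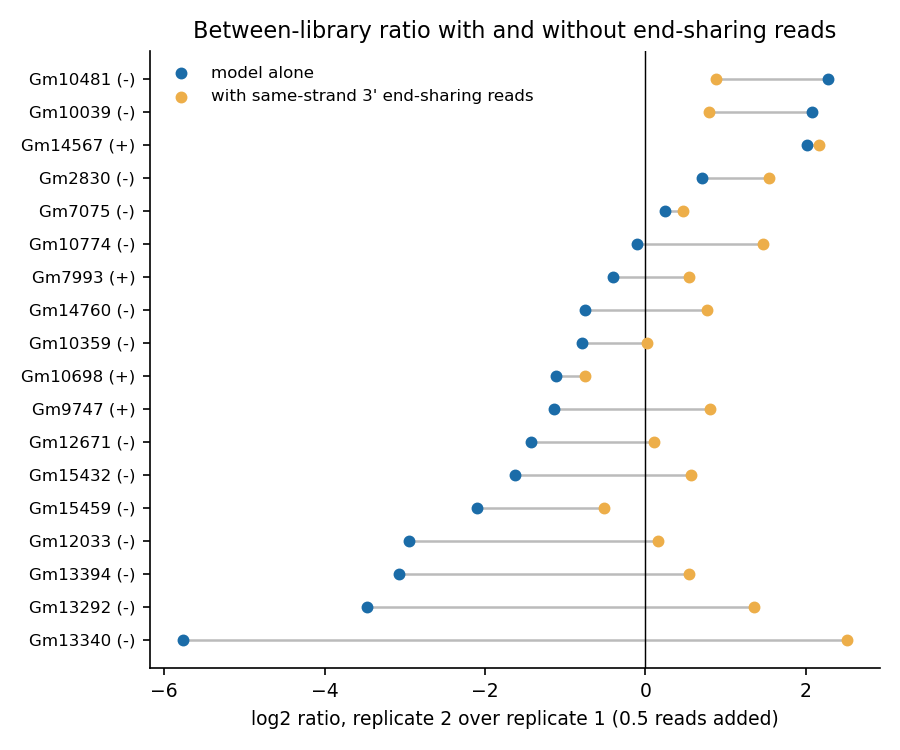
Log2 ratio of replicate 2 over replicate 1 (x axis, 0.5 reads added) for the 18 members with at least 10 reads and at least 10 same-strand downstream reads, by the model alone (blue) and with those reads (yellow), strand in brackets. Most minus-strand members move right, Gm13340 from −5.76 to 2.51, while Gm10481 and Gm10039 move left. The plus-strand members Gm9747, Gm10698, Gm7993 and Gm14567 also move right.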

How the data were processed

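The tables deposited by the authors hold raw counts of reads for each transcript model, 1 table per library, neither pooled nor normalized; they are whole numbers and list models with reads. Per the file headers, models were assigned on mm10 with the GENCODE M21 annotation and carry TALON identifiers; the sources used here do not give the aligner, the tool version or how reads that match several loci were placed. Model length and exon number came from the same tables, and positions came from the deposited annotation files.

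The members, gene lists and alternatives were chosen with earlier results of these data known. The text names the 12 members with the highest mean CPM, the 5 largest ratios each way among those called, the 8 with most end-sharing reads, the longest and shortest with at least 10 reads, and the parents of these. Further members named as examples (such as Gm8566, Gm28006, Gm37829, Gm10123, Gm28439, Gm8186, Gm13835 and the downstream models' other copies) were chosen after their values were seen.

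With 1 library on each side edgeR's quasi-likelihood test has no residual degrees of freedom, so a two-sided exact conditional binomial test was used (scipy 1.17.1). Benjamini-Hochberg adjustment was applied and 0.5 reads were added for log2 ratios. The test was run on simulated Poisson counts, which hold counting error alone. That simulation therefore cannot show how the test behaves under a spread between animals or libraries. TMM factors came from edgeR 4.0.16 on all annotated models with reads, and size factors from DESeq2 1.42.0 on models with at least 10 reads, in R 4.3.3. Candidate parents came from blastn 2.17.0 of the GENCODE M21 member sequences against spliced transcripts of named genes and the mitochondrial genes, leaving out genes at the member's own locus. Counts are uncertain where copies are near-identical. P-values measure counting error between 2 libraries and not the spread between animals. The sequence of 1 member is not reported here.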

Additional observations from a re-analysis of the deposited data

How the results depend on the processing

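Of 650 members, 144 had at least 10 reads in sum, and with 1 library alone the count was 404 to 525. The share of gene reads was 1.25%, and 0.840% without the Gapdh copies, an alternative chosen after seeing the data. With 1 library alone the share was 1.13% to 1.36%. With end-sharing reads of either strand added to the member reads but not to the total, the value was 1.62%. Many of the added reads lie in intergenic or antisense models, which the total of gene reads leaves out. The 1.62% is thus a ratio to gene reads and not a share of them. The number of members called, 53, became 81 with TMM factors (22.4% of all models called). As a count it stayed within 1.5 times of 53, at 43 to 79, with the other settings, but the number tested differed between some of them. Without the minimum of 10 reads, the 43 were 6.6% of 650 tested members, where the 53 were 36.8% of 144. The share of all models called is not given here for that setting. The median log2 ratio, 0.85, became 1.39 with TMM factors and 1.35 with DESeq2 size factors. End-sharing models stood beside 118 members, and beside 60 to 106 with 1 library alone. The median length, 625.5 bases, became 513 with at least 10 reads, 678 when weighted by reads, and 605.5 to 622 with 1 library alone. Candidate parents were found for 61.2% of members, and for 262 to 344 members with 1 library alone. With end-sharing reads added, the direction turned for Gm12671 (0.11), Gm12033 (0.15), Gm13394 (0.54), Gm10774 (1.47), Gm13340 (2.53), Gm13292 (1.36) and the sum of the Gapdh copies (0.23, chosen after seeing the data); the added reads themselves make these shifts. The cause of the other changes was not tested. Leaving out a replicate leaves no ratio between the libraries, so no such value can be given. No paired analysis was possible because the design has 1 group. Depth limits the tail: 300 members rest on 1 read.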
